A study of Mus musculus with 21 samples.

Results

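The 35 genes described here encode parts of the transport and gating machinery of the primary cilium, or a transcription factor of ciliated cells. They were taken from the value table by name: rows with exactly 1 gene symbol that began with Ift, Bbs, Nphp or Tctn and a digit, or that read Rpgrip1l, Cep290, Kif3a, Kif3b, Kif7, Foxj1, Mks1, B9d1 or B9d2. Of 19296 genes with a single symbol, 35 met the rule, in 36 rows, and the row with the higher mean was used for Kif7, which had 2. Arl13b, which the rule also covers, was not analysed here. By role the genes fell into 11 subunits of the intraflagellar transport (IFT) complex B, 3 of IFT complex A, 2 kinesin motor subunits, 6 subunits of the BBSome, 2 chaperonin-like proteins that assemble it, 7 proteins of the MKS module of the transition zone, 2 of its NPHP module, the Hedgehog regulator Kif7 and the transcription factor Foxj1. The rule used names alone.

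The samples were pancreata of mouse embryos of mixed strain (C57-Bl6/SV129/CD1), collected on embryonic days E12.5 to E15.5, 1 day apart, and sorted by flow cytometry on Foxa2-Venus fusion (FVF), in which the endodermal forkhead factor Foxa2 carries a fluorescent protein. FVF+ cells carried the fusion and FVF- cells were the remaining pancreatic cells, so every group comes from embryos with the fusion allele and the sorts differ in cell type as well as in Foxa2. Arrays numbered 2 for FVF- and 3 for FVF+ cells at E12.5, 2 for either sort at E13.5, and 3 for either at E14.5 and at E15.5. Each array gave a log2 signal per gene, summarised by robust multi-array average (RMA), in which 1 unit is a 2-fold difference. The labels call the replicates biological without saying whether they were separate embryos, litters or sorts, so a p-value here reflects only the spread among the samples at hand, which may be technical, and precision is limited by how few arrays there are.

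A primary cilium is a single antenna of microtubules that grows from the mother centriole of a resting cell. IFT trains carry cargo along it: IFT-B rides outward on a heterotrimeric kinesin that contains Kif3a and Kif3b, IFT-A serves the return on dynein-2, and the BBSome carries membrane proteins. The transition zone at the base, built from the MKS and NPHP modules, decides what enters. In the embryonic pancreas primary cilia are known from duct and endocrine cells, acinar cells lack them, and loss of Ift88 or Kif3a in pancreatic cells leads to cystic ducts and damaged acini.

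Foxa2 was 2.91 ± 0.10 log2 units higher in FVF+ cells (standard error, SE; adjusted p = 1.9e-14). All 9 markers of pancreatic epithelium were called higher in FVF+ cells, and all 10 of mesenchyme, 6 of endothelium and 8 of macrophages and leukocytes lower. The median of all values was 8.77, and the values of the 35 genes lay between 5.98 and 12.61. The mean of the 10 mesenchyme markers was 7.88 to 9.33 in FVF+ and 11.56 to 12.53 in FVF- arrays, and the 6 endothelial markers averaged 7.44 to 9.04 and 9.79 to 11.29. FVF+ E13.5 replicate 2 was high in the latter (9.04, against 7.69 in replicate 1), and FVF+ E12.5 replicate 1 was high in mesenchyme markers (9.17, against 8.09 and 7.88). In FVF- cells, replicate 3 at E14.5 was high in the 9 epithelial markers (9.90, against 9.19 and 8.35). Their part in the results was not tested.

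Many cilium genes are known targets of RFX transcription factors, whose X-box is an inverted pair of half-sites. Promoters were therefore searched for GTTNCC, 1 to 3 bases and GGNAAC, an arrangement that reads the same on both strands, and for the half-site GTTGCC on either strand, which can lie inside the longer motif. RefSeq promoters (GRCm38.p6, 250 bases before and 50 after each start) were at hand for 31 of the 35 genes, all but Foxj1, Ift80, Ift81 and Ift122. These genes had 34 promoters. The full motif stood in 5 of the 34 (14.7%), each of a different gene, against 0.776% of all 32851 promoters. The half-site stood in 16 of the 34 (47.1%), against 4111 of all 32851 promoters. Tctn1 held its match, GTTGCCCGGGCAAC, at bases 37 to 50 after the start. The 4 other promoters are shown as the 250 bases before the start, in capitals the match, because they show how the motif varies in spacer and place among genes of 3 complexes: Tctn3 (chr19:40612232-40612481, minus strand), Ift57 (chr16:49699044-49699293, plus strand), Mks1 (chr11:87852965-87853214, plus strand) and Bbs7 (chr3:36613390-36613639, minus strand).
Tctn3: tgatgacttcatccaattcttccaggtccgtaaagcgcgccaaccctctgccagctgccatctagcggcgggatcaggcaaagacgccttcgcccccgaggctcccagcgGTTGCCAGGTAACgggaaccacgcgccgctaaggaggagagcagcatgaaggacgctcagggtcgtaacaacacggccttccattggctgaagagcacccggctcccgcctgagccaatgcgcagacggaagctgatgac
Ift57: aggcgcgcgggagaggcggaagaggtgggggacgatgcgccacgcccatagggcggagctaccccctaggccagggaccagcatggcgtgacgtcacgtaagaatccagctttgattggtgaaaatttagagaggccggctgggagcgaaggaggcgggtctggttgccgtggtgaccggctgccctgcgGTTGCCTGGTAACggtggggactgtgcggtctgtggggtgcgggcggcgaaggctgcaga
Mks1: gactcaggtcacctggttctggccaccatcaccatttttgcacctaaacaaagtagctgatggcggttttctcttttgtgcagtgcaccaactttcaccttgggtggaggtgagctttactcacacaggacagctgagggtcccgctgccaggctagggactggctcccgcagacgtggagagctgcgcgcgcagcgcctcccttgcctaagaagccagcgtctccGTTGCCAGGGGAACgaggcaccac
Bbs7: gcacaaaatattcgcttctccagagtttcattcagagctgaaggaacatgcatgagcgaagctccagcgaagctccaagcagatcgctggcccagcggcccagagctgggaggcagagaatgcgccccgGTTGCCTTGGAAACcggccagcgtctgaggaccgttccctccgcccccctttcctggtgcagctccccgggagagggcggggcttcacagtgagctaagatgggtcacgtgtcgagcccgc
The spacer of the match was 1 base in Tctn3 and Ift57 and 2 bases in Mks1, Bbs7 and Tctn1. A match describes these letters and does not show that a factor binds there. Of the 5 genes, Bbs7 was called lower in FVF+ cells and the other 4 were not called in the mean sort difference. Among the 13 genes that fell with time in FVF+ cells and had a promoter, 1 held the full motif (Bbs7, 7.69%) and 4 the half-site (30.8%).

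The first comparison asks whether the cilium genes differ between FVF+ epithelium and the other cells of the pancreas. Differences were small, below 2-fold in the mean of the 4 days for all 35 genes, and IFT-B, IFT-A and the BBSome each held genes called in both directions. Cep290, Ift122, Bbs2 and Kif3b had the largest called mean differences on the FVF+ side, and Kif7 and Ift172 on the FVF- side. Of the single days, Cep290 was called at E12.5 alone. In the mean sort difference 11 genes were called higher and 7 lower in FVF+ cells, 51.4% against 55.7% of all genes tested (30.5% higher, 25.2% lower). The median of the 35 differences was 0.08, against 0.03 for all genes, and they ranged from -0.68 to 0.73 log2 units. None of the 35 reached 2-fold and a call, against 11.8% of all genes. In bulk samples, fewer cells that use a gene and less RNA per cell cannot be told apart.

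Day by day, 6 genes were higher and 3 lower in FVF+ at E12.5, 4 and 3 at E13.5, 6 and 3 at E14.5, and 6 and 6 at E15.5. Of all genes 35.9% (17.2% higher, 18.7% lower), 30.9% (15.8% and 15.2%), 44.6% (23.1% and 21.5%) and 43.9% (24.4% and 19.5%) were called on those days, and of the 35 genes 25.7%, 20.0%, 25.7% and 34.3%. Kif3b and Ift122 were called higher on all 4 days (9.22% of all genes were) and Ift172 and Kif7 lower on all 4 (10.6%). Not all of these calls were firm: Ift172 was not called at E15.5 under 22 of 35 alternatives, and Kif3b was not called at E13.5 under 19 of 34. Ift122 lost its call under 3 to 6 alternatives on each day from E12.5 to E14.5, Kif3b also under 1 at E12.5, and Kif7 under 1 at E13.5. Ift20 was called higher at E12.5, E13.5 and E14.5 and lower at E15.5, and 15 genes were called on no day. The shares of all genes with either pattern are not given here. Only Kif3b had every FVF+ array above every FVF- array over all 21 arrays (7.81% of all genes did), and only Ift172 and Kif7 had every one below (9.36%). The E13.5 calls were the least firm: 3, 1 and 3 genes were called without FVF- replicate 1, FVF+ replicate 1 and FVF+ replicate 2 of that day, and 0 higher and 3 lower after cyclic loess normalization. At E12.5 the count fell to 5 without either FVF- array, at E15.5 to 7 without FVF- replicate 1, and at E14.5 it rose to 16 without FVF+ replicate 2. After cyclic loess normalization the split was 6 higher and 7 lower at E14.5 and 3 and 6 at E15.5, and after median centring it was 9 and 5 at E15.5.

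**Figure D1:**
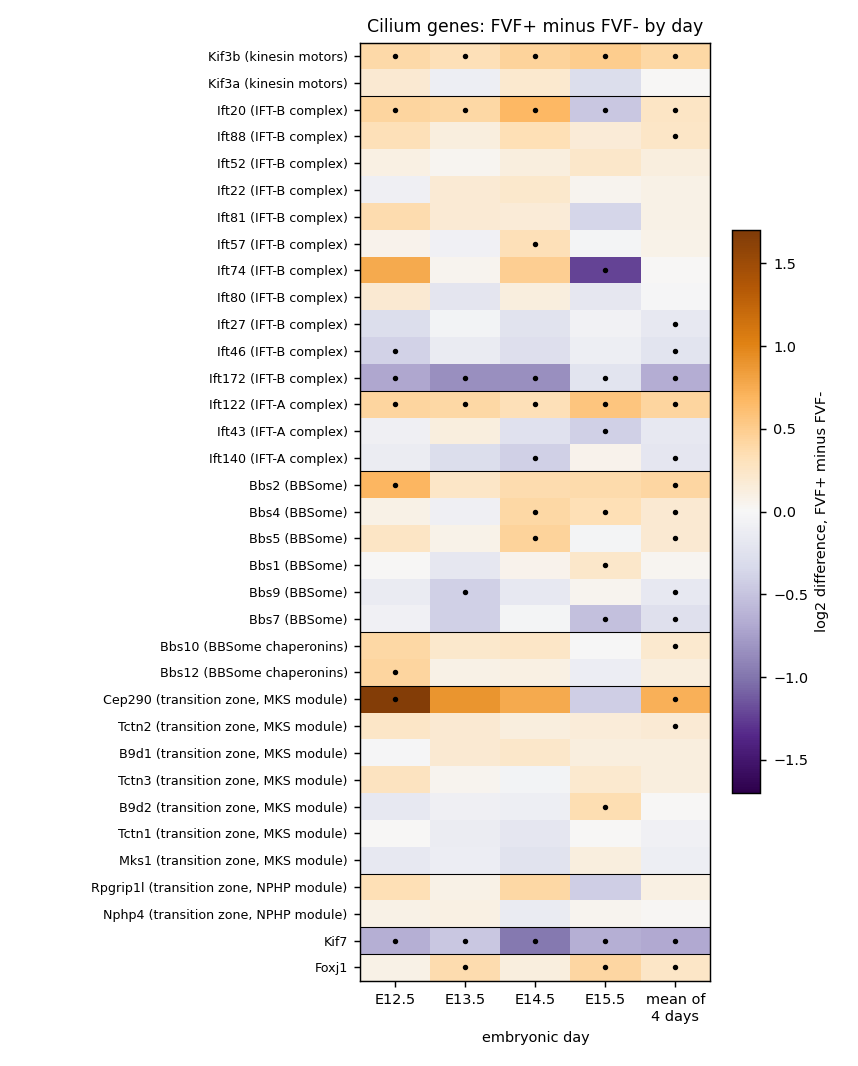
Heat map of the FVF+ minus FVF- log2 difference (colour scale, log2 units) of the 35 cilium genes (rows, grouped by complex) on each embryonic day and as the mean of the 4 days (columns). A dot marks a call at an adjusted p under 0.05; Kif3b and Ift122 are called higher and Ift172 and Kif7 lower in every column, the Ift172 call at E15.5 and the Kif3b call at E13.5 being lost under 22 of 35 and 19 of 34 alternatives, while Ift20 and Ift74 turn from the FVF+ to the FVF- side at E15.5.

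The kinesin motor subunits did not share a pattern. Kif3b in FVF+ cells read 9.47, 9.59 and 9.57 at E12.5, 9.43 and 9.52 at E13.5, 9.61, 9.45 and 9.69 at E14.5 and 9.63, 9.21 and 9.54 at E15.5. The FVF- arrays read 9.13 and 9.18 at E12.5, 9.17 and 9.14 at E13.5, 9.12, 9.14 and 9.15 at E14.5 and 8.88, 8.94 and 9.05 at E15.5. Every FVF+ array lay above every FVF- array, and the mean sort difference was 0.41 ± 0.05 (SE, adjusted p = 1.4e-06), with daily differences from 0.32 to 0.50. Kif3a read 9.3, 9.25 and 9.32 at E12.5, 9.06 and 9.1 at E13.5, 8.87, 8.55 and 9.1 at E14.5 and 8.09, 8.08 and 8.35 at E15.5 in FVF+ cells. Its FVF- signal was 9.13 and 9.07 at E12.5, 8.83 and 9.52 at E13.5, 8.4, 8.57 and 8.93 at E14.5 and 8.43, 8.32 and 8.62 at E15.5. Its arrays overlapped between the sorts on all days but E12.5, the mean sort difference was 0.00 ± 0.09 (SE, adjusted p = 0.972), and the level fell with time in both sorts, as given further on. Of the third subunit, the adaptor Kifap3, the difference was -0.71 ± 0.06 (SE, adjusted p = 1.3e-08).

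Among the IFT-B subunits 2 were called higher in FVF+ cells (Ift20 and Ift88) and 3 lower (Ift172, Ift46 and Ift27), and the median of the 11 differences was 0.07. Ift172, a large subunit at the periphery of the complex, had the lowest difference of the 11. In FVF+ cells Ift172 read 9.17, 9.19 and 9.24 at E12.5, 8.87 and 8.92 at E13.5, 9.14, 9.26 and 9.04 at E14.5 and 9.21, 9.26 and 9.43 at E15.5. Ift172 in FVF- cells read 9.81 and 10.0 at E12.5, 9.86 and 9.64 at E13.5, 10.02, 10.02 and 9.94 at E14.5 and 9.59, 9.5 and 9.46 at E15.5. FVF- arrays lay above FVF+ arrays throughout, and the gap narrowed at E15.5, from -0.85 at E14.5 to -0.22. The mean sort difference was -0.66 ± 0.05 (SE, adjusted p = 5.4e-10).

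Ift20, the subunit that also sits at the Golgi and sends membrane cargo towards the cilium, turned over. Ift20 in FVF+ cells read 12.41 ± 0.08 (mean and SD, n = 3) at E12.5, 12.54 and 12.6 at E13.5, 12.59, 12.48 and 12.61 at E14.5 and 11.45, 11.56 and 11.7 at E15.5. FVF- arrays of Ift20 read 12.08 and 11.88 at E12.5, 11.91 and 12.43 at E13.5, 11.95, 11.76 and 11.96 at E14.5 and 12.0, 11.97 and 12.14 at E15.5. The FVF+ arrays were the higher ones from E12.5 to E14.5, with no overlap within a day, and the lower ones at E15.5, again without overlap. The daily differences were 0.43, 0.40 and 0.67, then -0.47 log2 units.

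Ift74 forms the tubulin-binding pair of IFT-B with Ift81. Ift74 read 8.42, 8.72 and 8.83 at E12.5, 8.57 and 8.47 at E13.5, 8.24, 7.43 and 8.47 at E14.5 and 7.18, 6.6 and 7.69 at E15.5 in FVF+ cells. In FVF- cells it read 8.16 and 7.64 at E12.5, 8.13 and 8.81 at E13.5, 7.1, 7.45 and 8.16 at E14.5 and 8.33, 8.2 and 8.63 at E15.5. The arrays of FVF- cells spread widely at E13.5 and those of both sorts at E14.5, and at E15.5 every FVF+ array lay below every FVF- array, by -1.23 log2 units (adjusted p = 0.00273). With daily differences of both signs, the mean sort difference was 0.01 ± 0.17 (SE, adjusted p = 0.956) and not called. Ift81 differed by 0.08 ± 0.10 (SE, adjusted p = 0.511) in the mean of the days, from 0.36 at E12.5 to -0.37 at E15.5, and was called on no day.

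Ift88, a core subunit without which cilia do not form, was modestly higher in FVF+ cells. In FVF+ cells Ift88 read 9.81, 9.87 and 9.97 at E12.5, 9.69 and 9.81 at E13.5, 9.84, 9.54 and 9.9 at E14.5 and 9.66, 8.94 and 9.42 at E15.5. The FVF- arrays read 9.59 and 9.53 at E12.5, 9.54 and 9.72 at E13.5, 9.28, 9.37 and 9.6 at E14.5 and 9.19, 9.2 and 9.15 at E15.5. FVF+ arrays lay above FVF- arrays at E12.5 and overlapped them on the later days, and the mean sort difference was 0.24 ± 0.08 (SE, adjusted p = 0.0134). Ift46, a neighbour of Ift88 in the core, went the other way. Ift46 in FVF+ cells read 11.22, 11.31 and 11.5 at E12.5, 11.3 and 11.53 at E13.5, 11.13, 11.53 and 11.1 at E14.5 and 11.08, 11.27 and 11.05 at E15.5. Its FVF- signal was 11.68 and 11.78 at E12.5, 11.59 and 11.52 at E13.5, 11.66, 11.51 and 11.4 at E14.5 and 11.12, 11.31 and 11.27 at E15.5. Its arrays were apart at E12.5 alone, and the mean sort difference was -0.22 ± 0.06 (SE, adjusted p = 0.00545).

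Ift27 is a small GTPase of the complex that links it to the BBSome. Ift27 read 9.27, 9.35 and 9.44 at E12.5, 9.3 and 9.33 at E13.5, 9.63, 9.76 and 9.49 at E14.5 and 9.63, 9.81 and 9.81 at E15.5 in FVF+ cells. Ift27 in FVF- cells read 9.83 and 9.45 at E12.5, 9.57 and 9.17 at E13.5, 9.98, 9.77 and 9.83 at E14.5 and 9.93, 9.7 and 9.79 at E15.5. FVF+ arrays lay below FVF- arrays at E12.5 and E14.5 and overlapped them at E13.5 and E15.5. The mean sort difference was -0.16 ± 0.06 (SE, adjusted p = 0.0431). This call was lost in 15 of 34 alternative analyses, 12 of them fits without 1 array, with differences from -0.21 to -0.11 over all 34. Ift52 is another core subunit. In FVF+ cells Ift52 read 10.35, 10.34 and 10.49 at E12.5, 10.09 and 10.37 at E13.5, 10.37, 10.22 and 10.41 at E14.5 and 10.07, 10.03 and 10.16 at E15.5. FVF- arrays of Ift52 read 10.31 and 10.28 at E12.5, 10.4 and 10.01 at E13.5, 10.24, 10.11 and 10.29 at E14.5 and 9.81, 9.85 and 9.91 at E15.5. The sorts were apart at E12.5 and E15.5, each time by at most 0.23 log2 units, and the mean sort difference, 0.12 ± 0.05 (SE, adjusted p = 0.0763), was not called. The other 3 IFT-B genes were not called in the mean: Ift22 differed by 0.09 ± 0.07 (SE, adjusted p = 0.301), Ift57 by 0.07 ± 0.06 (SE, adjusted p = 0.363) and Ift80 by -0.02 ± 0.09 (SE, adjusted p = 0.872). Ift57 was called higher in FVF+ cells at E14.5, a call lost under 5 of 35 alternatives.

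Of the IFT-A subunits, Ift122, a scaffold of the complex core, was higher in FVF+ cells on all 4 days. Ift122 in FVF+ cells read 10.05, 9.96 and 10.07 at E12.5, 9.8 and 9.73 at E13.5, 9.81, 10.2 and 9.72 at E14.5 and 9.68, 9.8 and 9.78 at E15.5. In FVF- cells it read 9.59 and 9.61 at E12.5, 9.28 and 9.44 at E13.5, 9.75, 9.43 and 9.57 at E14.5 and 9.24, 9.03 and 9.27 at E15.5. The sorts overlapped at E14.5 alone, and the mean sort difference was 0.43 ± 0.06 (SE, adjusted p = 5.9e-06). Ift140, another core subunit, was on the FVF- side. Ift140 read 9.81, 9.82 and 9.96 at E12.5, 9.51 and 9.8 at E13.5, 9.65, 9.81 and 9.69 at E14.5 and 9.5, 9.75 and 9.67 at E15.5 in FVF+ cells. The FVF- arrays read 9.89 and 10.09 at E12.5, 10.09 and 9.8 at E13.5, 10.29, 9.99 and 10.06 at E14.5 and 9.49, 9.62 and 9.64 at E15.5. Its arrays were apart at E14.5 and overlapped on the other days, and the mean sort difference was -0.19 ± 0.06 (SE, adjusted p = 0.0108). Ift43 is a small peripheral subunit. In FVF+ cells Ift43 read 9.67, 9.74 and 9.69 at E12.5, 9.81 and 9.63 at E13.5, 9.39, 9.5 and 9.42 at E14.5 and 9.48, 9.16 and 9.58 at E15.5. Its FVF- signal was 9.84 and 9.73 at E12.5, 9.81 and 9.39 at E13.5, 9.68, 9.66 and 9.71 at E14.5 and 10.04, 9.68 and 9.73 at E15.5. FVF+ arrays lay below FVF- arrays at E14.5 and E15.5 and overlapped them before. It was called at E15.5, at -0.41 log2 units (adjusted p = 0.00931), and not in the mean (-0.16 ± 0.07 (SE, adjusted p = 0.0514)).

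The BBSome subunits were also split, with 3 of 6 called higher in FVF+ cells (Bbs2, Bbs4 and Bbs5) and 2 lower (Bbs7 and Bbs9). Bbs2 pairs with Bbs7 in the complex. Bbs2 in FVF+ cells read 10.4, 10.29 and 10.19 at E12.5, 10.22 and 9.81 at E13.5, 10.15, 9.96 and 10.15 at E14.5 and 9.53, 9.91 and 9.55 at E15.5. Bbs2 in FVF- cells read 9.66 and 9.54 at E12.5, 9.77 and 9.77 at E13.5, 9.96, 9.34 and 9.88 at E14.5 and 9.02, 9.64 and 9.19 at E15.5. FVF+ arrays lay above FVF- arrays at E12.5 and E13.5 and overlapped them at E14.5 and E15.5. Its mean sort difference was 0.42 ± 0.09 (SE, adjusted p = 6.6e-04). Bbs4 binds the centriolar satellites. Bbs4 read 9.06, 8.92 and 8.93 at E12.5, 8.99 and 8.91 at E13.5, 9.18, 9.11 and 8.98 at E14.5 and 8.47, 8.47 and 8.91 at E15.5 in FVF+ cells. FVF- arrays of Bbs4 read 9.05 and 8.71 at E12.5, 8.87 and 9.2 at E13.5, 8.54, 8.65 and 8.84 at E14.5 and 8.26, 8.37 and 8.2 at E15.5. The sorts overlapped at E12.5 and E13.5 and were apart at E14.5 and E15.5. Bbs4 differed by 0.19 ± 0.07 (SE, adjusted p = 0.0260) in the mean. The call was lost without FVF- E12.5 replicate 2 (0.15, adjusted p = 0.0962), FVF- E13.5 replicate 1 (0.15, 0.0911) or FVF+ E13.5 replicate 1 (0.18, 0.0583). Bbs5 is a lipid-binding subunit. In FVF+ cells Bbs5 read 8.6, 8.69 and 8.83 at E12.5, 8.6 and 8.5 at E13.5, 8.7, 8.46 and 8.71 at E14.5 and 8.12, 7.9 and 8.36 at E15.5. In FVF- cells it read 8.56 and 8.34 at E12.5, 8.48 and 8.47 at E13.5, 7.92, 8.36 and 8.25 at E14.5 and 8.14, 8.19 and 8.14 at E15.5. FVF+ arrays were above FVF- arrays on each day but E15.5. The mean sort difference of Bbs5 was 0.19 ± 0.07 (SE, adjusted p = 0.0230), and the call was lost without FVF- E12.5 replicate 2 (0.16, adjusted p = 0.0728) or FVF+ E13.5 replicate 1 (0.17, 0.0558).

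Bbs7 and Bbs9 were the BBSome genes on the FVF- side. Bbs7 in FVF+ cells read 9.06, 8.94 and 8.97 at E12.5, 9.08 and 8.89 at E13.5, 9.13, 8.64 and 9.27 at E14.5 and 8.43, 8.36 and 8.56 at E15.5. The FVF- arrays read 9.21 and 8.92 at E12.5, 9.43 and 9.35 at E13.5, 8.82, 9.03 and 9.27 at E14.5 and 8.8, 9.14 and 9.0 at E15.5. The sorts were apart at E13.5 and E15.5 and overlapped at E12.5 and E14.5. Bbs7 differed by -0.26 ± 0.08 (SE, adjusted p = 0.00915) in the mean, and without the E13.5 arrays by -0.21 (adjusted p = 0.0618). Bbs9 read 10.19, 10.06 and 10.27 at E12.5, 9.91 and 10.04 at E13.5, 10.27, 10.36 and 10.17 at E14.5 and 10.2, 10.13 and 10.08 at E15.5 in FVF+ cells. Its FVF- signal was 10.38 and 10.24 at E12.5, 10.43 and 10.34 at E13.5, 10.5, 10.41 and 10.38 at E14.5 and 9.94, 10.23 and 10.09 at E15.5. FVF+ arrays lay below FVF- arrays at E13.5 and E14.5, with the larger gap at E13.5. The difference was -0.17 ± 0.05 (SE, adjusted p = 0.00662) over the 4 days and -0.08 without E13.5 (adjusted p = 0.217). Bbs1 is the subunit that docks on the membrane GTPase Arl6. In FVF+ cells Bbs1 read 9.99, 10.07 and 9.81 at E12.5, 9.86 and 9.83 at E13.5, 10.14, 10.36 and 10.11 at E14.5 and 10.23, 10.3 and 10.32 at E15.5. Bbs1 in FVF- cells read 9.98 and 9.94 at E12.5, 9.98 and 10.06 at E13.5, 10.23, 10.09 and 10.12 at E14.5 and 10.03, 10.09 and 10.05 at E15.5. FVF+ arrays were the lower ones at E13.5 and the higher ones at E15.5, and the mean sort difference, 0.03 ± 0.04 (SE, adjusted p = 0.657), was not called.

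The chaperonin-like proteins Bbs10 and Bbs12 help to fold Bbs7 into the BBSome core. Bbs10 in FVF+ cells read 8.89, 8.22 and 8.71 at E12.5, 8.47 and 8.72 at E13.5, 8.4, 7.98 and 8.42 at E14.5 and 7.92, 7.88 and 7.82 at E15.5. FVF- arrays of Bbs10 read 8.24 and 8.18 at E12.5, 8.32 and 8.44 at E13.5, 8.24, 7.9 and 7.92 at E14.5 and 8.0, 7.92 and 7.73 at E15.5. The sorts overlapped on all days but E13.5. Bbs10 differed by 0.21 ± 0.08 (SE, adjusted p = 0.0365) in the mean, a call lost in 14 of 33 alternative analyses, 12 of them fits without 1 array, with differences from 0.18 to 0.28 over all 33. Bbs12 read 7.92, 8.11 and 8.15 at E12.5, 7.78 and 7.91 at E13.5, 7.68, 7.04 and 7.51 at E14.5 and 7.13, 7.09 and 7.13 at E15.5 in FVF+ cells. In FVF- cells it read 7.61 and 7.66 at E12.5, 7.7 and 7.82 at E13.5, 7.06, 7.51 and 7.36 at E14.5 and 7.11, 7.26 and 7.32 at E15.5. At E12.5 every FVF+ array lay above every FVF- array, by 0.43 log2 units (adjusted p = 0.0353), and the sorts overlapped afterwards. The mean sort difference of Bbs12, 0.12 ± 0.07 (SE, adjusted p = 0.169), was not called.

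In the MKS module of the transition zone 2 of 7 genes were called higher in FVF+ cells, Cep290 and Tctn2, and none lower. Cep290, a long coiled-coil protein that ties the microtubules of the transition zone to the membrane, had the largest mean difference of the 35 genes. In FVF+ cells Cep290 read 8.35, 8.69 and 8.45 at E12.5, 8.18 and 8.39 at E13.5, 7.37, 6.74 and 7.98 at E14.5 and 7.05, 6.43 and 7.16 at E15.5. The FVF- arrays read 7.1 and 6.56 at E12.5, 6.99 and 7.8 at E13.5, 5.98, 6.56 and 7.23 at E14.5 and 7.47, 7.31 and 7.11 at E15.5. FVF+ arrays lay above FVF- arrays at E12.5 and E13.5 and overlapped them at E14.5 and E15.5. Over the 4 days the difference was 0.73 ± 0.17 (SE, adjusted p = 0.00120). It was 1.67 ± 0.35 log2 units at E12.5 (SE, 3.17-fold) and -0.42 ± 0.31 at E15.5, where it was not called (adjusted p = 0.303). Tctn2 is one of the 3 tectonic proteins. Tctn2 in FVF+ cells read 10.0, 9.97 and 9.91 at E12.5, 9.79 and 9.79 at E13.5, 9.89, 10.22 and 9.79 at E14.5 and 9.94, 9.89 and 9.87 at E15.5. Its FVF- signal was 9.76 and 9.68 at E12.5, 9.64 and 9.56 at E13.5, 9.89, 9.82 and 9.82 at E14.5 and 9.78, 9.7 and 9.77 at E15.5. The sorts overlapped at E14.5 alone. Tctn2 differed by 0.18 ± 0.05 (SE, adjusted p = 0.00431) in the mean, and by 0.11 after cyclic loess normalization (adjusted p = 0.0865).

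B9d2 is a B9-domain protein of the same module. B9d2 read 7.88, 7.59 and 7.75 at E12.5, 7.66 and 7.68 at E13.5, 7.82, 8.14 and 7.76 at E14.5 and 8.27, 8.29 and 8.51 at E15.5 in FVF+ cells. B9d2 in FVF- cells read 8.0 and 7.83 at E12.5, 7.93 and 7.58 at E13.5, 7.92, 8.24 and 7.86 at E14.5 and 7.91, 8.11 and 8.0 at E15.5. FVF+ arrays overlapped the others from E12.5 to E14.5 and lay above them at E15.5, by 0.35 log2 units (adjusted p = 0.0324), and the mean sort difference was -0.00 ± 0.07 (SE, adjusted p = 0.980). The other 4 genes of the module were called neither in the mean nor on any day: B9d1 differed by 0.13 ± 0.08 (SE, adjusted p = 0.174), Tctn3 by 0.12 ± 0.06 (SE, adjusted p = 0.0774), Tctn1 by -0.07 ± 0.06 (SE, adjusted p = 0.280) and Mks1 by -0.10 ± 0.06 (SE, adjusted p = 0.214).

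Neither analysed gene of the NPHP module was called between the sorts. In FVF+ cells Rpgrip1l read 9.07, 9.21 and 9.3 at E12.5, 9.14 and 9.13 at E13.5, 8.89, 8.25 and 8.94 at E14.5 and 8.14, 7.96 and 8.19 at E15.5. FVF- arrays of Rpgrip1l read 8.97 and 8.73 at E12.5, 8.6 and 9.49 at E13.5, 7.88, 8.4 and 8.58 at E14.5 and 8.45, 8.73 and 8.38 at E15.5. Rpgrip1l, a scaffold of the transition zone, was above FVF- in every FVF+ array at E12.5 and below it in every one at E15.5, for a mean sort difference of 0.10 ± 0.12 (SE, adjusted p = 0.482). Nphp4 in FVF+ cells read 8.82, 8.79 and 8.82 at E12.5, 8.74 and 8.65 at E13.5, 8.82, 8.99 and 8.75 at E14.5 and 8.98, 8.92 and 8.99 at E15.5. In FVF- cells it read 8.73 and 8.73 at E12.5, 8.67 and 8.51 at E13.5, 9.05, 9.1 and 8.82 at E14.5 and 8.87, 8.99 and 8.9 at E15.5. Nphp4, a binding partner of Rpgrip1l, differed by 0.02 ± 0.05 (SE, adjusted p = 0.707), with the sorts apart at E12.5 alone.

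Kif7, a kinesin-like protein that orders the ciliary tip and restrains Gli factors, had the lowest mean sort difference of the 35 genes. Kif7 read 8.51, 8.52 and 8.67 at E12.5, 8.63 and 8.71 at E13.5, 8.52, 8.4 and 8.44 at E14.5 and 8.45, 8.67 and 8.51 at E15.5 in FVF+ cells. The FVF- arrays read 9.11 and 9.32 at E12.5, 9.14 and 9.14 at E13.5, 9.67, 9.41 and 9.21 at E14.5 and 9.03, 9.34 and 9.17 at E15.5. All 11 FVF+ arrays lay below all 10 FVF- arrays. The mean sort difference was -0.68 ± 0.06 (SE, adjusted p = 9.4e-09), or 1.61-fold. The second probe set of Kif7 read 8.07 to 8.73 in FVF+ and 8.56 to 9.02 in FVF- arrays, so it was lower in FVF+ cells as well but with overlapping ranges. Foxj1, the transcription factor of motile cilia, was on the FVF+ side. In FVF+ cells Foxj1 read 7.27, 7.36 and 7.48 at E12.5, 7.54 and 7.43 at E13.5, 7.4, 7.46 and 7.36 at E14.5 and 7.74, 7.74 and 7.6 at E15.5. Its FVF- signal was 7.1 and 7.47 at E12.5, 6.98 and 7.27 at E13.5, 7.36, 7.25 and 7.22 at E14.5 and 7.2, 7.43 and 7.2 at E15.5. FVF+ arrays lay above FVF- arrays at E13.5 and E15.5 and overlapped them at E12.5 and E14.5, and the mean sort difference was 0.25 ± 0.06 (SE, adjusted p = 0.00103).

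**Figure D2:**
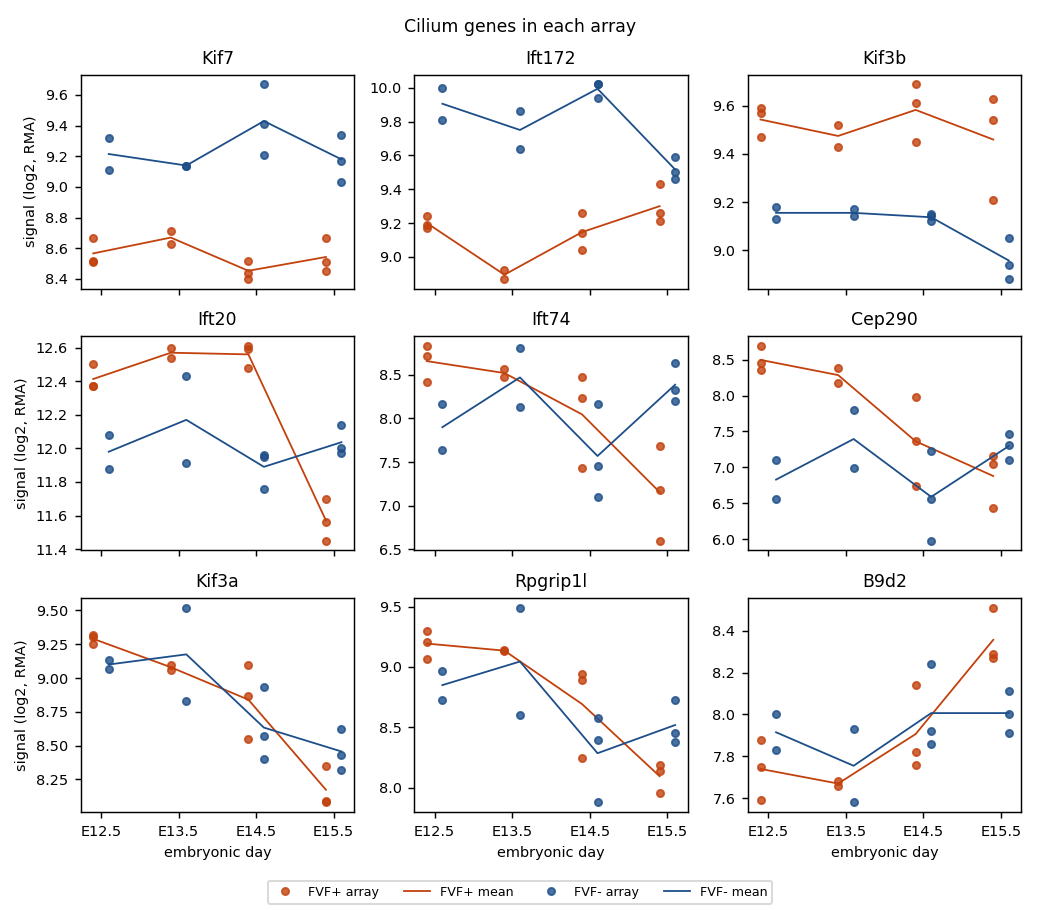
Log2 signal (vertical axes, each with its own range) of 9 of the cilium genes in every array by embryonic day (horizontal axis), FVF+ in orange and FVF- in blue, with lines through the group means. Kif7 and Ift172 lie lower and Kif3b higher in all FVF+ arrays, Ift20 and Ift74 change sides at E15.5, and Cep290, Kif3a and Rpgrip1l decline in FVF+ cells, while B9d2 rises.

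The second comparison asks how the genes changed from E12.5 to E15.5, the days over which the pancreas moves from expanding progenitors to acinar, duct and endocrine cells. In FVF+ cells 15 of the 35 genes fell, 4 rose and 16 were not called, and every complex of more than 1 gene but IFT-A had at least 1 gene that fell. The 35 genes' calls made up 54.3%, against 46.9% of all genes. The 15 falls made up 42.9%, against 19.3% of all genes, and the 4 rises 11.4%, against 27.6%. The median change was -0.23 log2 units, against 0.09 for all genes. Under the other normalizations the members' median was -0.25 to -0.18. At least 2-fold falls were seen for Cep290, Ift74, Kif3a and Rpgrip1l. The middle 50% of all genes changed by -0.20 to 0.31 log2 units, and the share of all genes that fell at least 2-fold is not given here.

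Cep290 fell by 1.62 log2 units, or 3.07-fold (SE 0.31, adjusted p = 5.5e-04), from a mean of 8.50 ± 0.17 (SD, n = 3) to 6.88 ± 0.39 (SD, n = 3). Ift74 fell from 8.66 ± 0.21 (SD, n = 3) to 7.16 ± 0.55 (SD, n = 3), a change of -1.50 ± 0.30 (SE, adjusted p = 8.0e-04), and its partner Ift81 changed by -0.95 ± 0.18 (SE, adjusted p = 5.0e-04). Kif3a fell from 9.29 ± 0.04 (SD, n = 3) to 8.17 ± 0.15 (SD, n = 3), a change of -1.12 ± 0.17 (SE, adjusted p = 5.4e-05), while Kif3b changed by -0.08 ± 0.10 (SE, adjusted p = 0.491) and was not called. Rpgrip1l fell from 9.19 ± 0.12 (SD, n = 3) to 8.10 ± 0.12 (SD, n = 3), a change of -1.10 ± 0.21 (SE, adjusted p = 5.8e-04). In each of these falling genes all E15.5 arrays lay below all E12.5 arrays. Cep290 and Ift74 were dim, with no group mean above 8.77, the median of all values.

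The other falls in IFT-B were Ift20 (-0.84), Ift88 (-0.54), Ift80 (-0.47) and Ift52 (-0.31). The BBSome lost Bbs2 (-0.63), Bbs5 (-0.58), Bbs7 (-0.54) and Bbs4 (-0.35), and both chaperonins fell, Bbs12 by 0.94 and Bbs10 by 0.73 log2 units. The IFT-A genes were not called in FVF+ cells, at -0.27 for Ift122, -0.22 for Ift140 and -0.29 for Ift43. The smallest falls were the least firm. Ift80 was not called without FVF+ E12.5 replicate 2 (-0.48, adjusted p = 0.0517), FVF+ E12.5 replicate 3 (-0.43, 0.0770) or FVF+ E15.5 replicate 2 (-0.36, 0.111). Ift52 was not called without FVF+ E12.5 replicate 3 (-0.26, 0.0820) or FVF+ E15.5 replicate 2 (-0.28, 0.0594), and at -0.20 after quantile (0.0758) or cyclic loess normalization (0.0830). Bbs4 was not called without FVF+ E12.5 replicate 1 (-0.31, 0.0926) or 3 (-0.37, 0.0544), nor without FVF+ E15.5 replicate 1 (-0.28, 0.119) or 2 (-0.28, 0.116).

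The 4 genes that rose in FVF+ cells were B9d2, Ift27, Bbs1 and Foxj1, and none of them by 2-fold. B9d2 changed by 0.62 ± 0.13 (SE, adjusted p = 9.4e-04), Ift27 by 0.40 ± 0.12 (SE, adjusted p = 0.0107), Bbs1 by 0.33 ± 0.08 (SE, adjusted p = 0.00407) and Foxj1 by 0.32 ± 0.10 (SE, adjusted p = 0.0176). The rise of Foxj1 depended on the normalization, at 0.12 (adjusted p = 0.389) after quantile and 0.10 (0.446) after cyclic loess normalization. It was also lost without FVF+ E12.5 replicate 1 (0.27, adjusted p = 0.0697) or FVF+ E15.5 replicate 1 (0.30, 0.0539) or 2 (0.30, 0.0527).

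In FVF- cells 7 genes fell and none rose, 20.0% against 20.4% of all genes called, with 10.7% of all genes higher and 9.70% lower. At an unadjusted p under 0.05 in limma, 0 were higher and 12 lower at E15.5. The median change was -0.14 log2 units, against 0.00 for all genes. The falls were Kif3a (-0.64 ± 0.18 (SE, adjusted p = 0.0192)), Bbs4 (-0.60 ± 0.14 (SE, adjusted p = 0.00542)), Ift46 (-0.50 ± 0.13 (SE, adjusted p = 0.0110)), Ift52 (-0.44 ± 0.11 (SE, adjusted p = 0.00951)), Ift122 (-0.42 ± 0.13 (SE, adjusted p = 0.0235)), Ift140 (-0.41 ± 0.12 (SE, adjusted p = 0.0238)) and Ift172 (-0.39 ± 0.10 (SE, adjusted p = 0.00763)). Kif3a fell from 9.10 ± 0.04 (SD, n = 2) to 8.46 ± 0.15 (SD, n = 3). The IFT-A subunits Ift122 and Ift140 were thus among the FVF- falls. Kif3a, Bbs4 and Ift52 fell in both sorts, 3 of the 19 genes called in FVF+ and 3 of the 7 called in FVF- cells. The share of all genes that fell in both sorts is not given here. The FVF- calls rested on the pair of E12.5 arrays: without FVF- E12.5 replicate 1 there were 3 and without replicate 2 there was 1, while array weights or median centring gave 11. Markers of other cells moved in FVF- cells over the same days: 7 of 9 acinar markers rose, as did 5 of 8 of macrophages and leukocytes, 3 of 6 of endothelium and 5 of 10 of mesenchyme, of which 1 fell. The mean of the acinar markers was 7.96 to 7.98 in FVF- arrays at E12.5 and 9.75 to 10.70 at E15.5, that of the macrophage and leukocyte markers 9.56 to 9.71 and 10.76 to 11.04, that of the endothelial markers 9.79 to 10.11 and 10.44 to 11.29, and that of the mesenchyme markers 11.56 to 11.78 and 12.39 to 12.45. Their part in the FVF- falls was not tested.

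**Figure D3:**
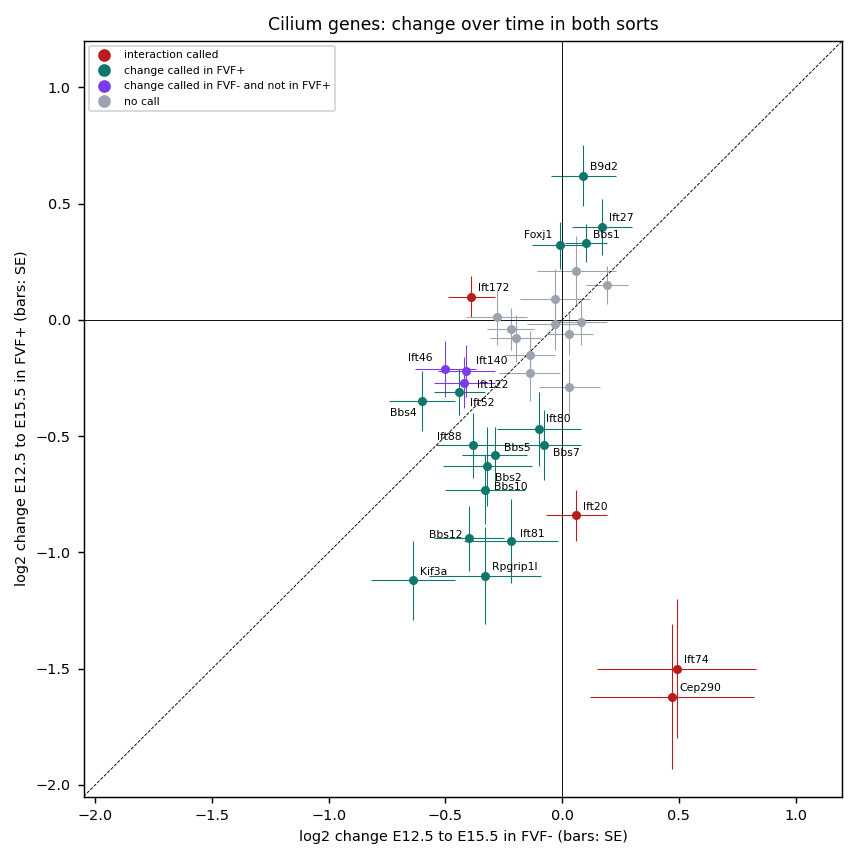
Log2 change from E12.5 to E15.5 in FVF+ cells (vertical axis) against the change in FVF- cells (horizontal axis) for the 35 cilium genes, with SE bars and a dashed line of equal change. Named genes lie on both sides of the dashed line. Among those below 0 on both axes, Kif3a, Rpgrip1l, Ift81, Bbs10 and Bbs12 lie below the line. Bbs4, Ift52, Ift46, Ift122 and Ift140 lie above it. Cep290, Ift74, Ift20 and Ift172 (red) are those whose change was called different between the sorts.

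The third comparison asks whether the change over time differed between the sorts. It did for 4 genes, 11.4% against 19.6% of all genes (10.8% higher, 8.83% lower), and 3 of them fell relative to FVF- cells. Cep290 had an interaction (change in FVF+ minus change in FVF-) of -2.08 ± 0.47 (SE, adjusted p = 0.00536), Ift74 of -1.99 ± 0.45 (SE, adjusted p = 0.00597) and Ift20 of -0.90 ± 0.17 (SE, adjusted p = 0.00155). In FVF- cells these 3 changed by 0.47 ± 0.35 (SE, adjusted p = 0.403), 0.49 ± 0.34 (SE, adjusted p = 0.364) and 0.06 ± 0.13 (SE, adjusted p = 0.818), and none of those changes was called. Ift172 had an interaction of 0.49 ± 0.13 (SE, adjusted p = 0.0138), with a change of 0.10 ± 0.09 (SE, adjusted p = 0.352) in FVF+ and a called fall in FVF- cells. Without FVF- E12.5 replicate 2 the interaction of Ift172 was 0.39 (adjusted p = 0.102). Without FVF+ E14.5 replicate 2, whose group does not enter the contrast but does enter the estimate of the spread, 7 genes were called. For the other 31 genes a difference between the sorts was not called, among them Kif3a (-0.47 ± 0.25 (SE, adjusted p = 0.187)) and Rpgrip1l (-0.77 ± 0.32 (SE, adjusted p = 0.0980)).

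By daily steps, falls were called in FVF+ cells in the last one alone. The earlier steps rest on the 2 FVF+ arrays at E13.5, which limits their calls. From E12.5 to E13.5 none of the 35 genes was called by limma (0.00518% of all genes), and 1 had an unadjusted p under 0.05. From E13.5 to E14.5 Bbs1 alone was called, rising by 0.36 ± 0.09 (SE, adjusted p = 0.0199) (8.85% of all genes were called, 5.88% higher and 2.97% lower). From E14.5 to E15.5 11 genes were called, 31.4% against 25.6% of all genes. B9d2 rose, and 10 genes fell (28.6% against 10.8% of all genes, with 14.7% higher): Ift20, Ift74, Kif3a, Rpgrip1l, Bbs7, Bbs5, Bbs4, Ift88, Ift22 and Ift57. Ift20 changed by -0.99 ± 0.11 (SE, adjusted p = 9.4e-05), the largest of these steps. Kif3a changed by -0.67 ± 0.17 (SE, adjusted p = 0.00898) and Bbs7 by -0.56 ± 0.15 (SE, adjusted p = 0.0108) in this step. Cep290 was called in no single step, at -0.92 ± 0.35 (SE, adjusted p = 0.113) from E13.5 to E14.5 and -0.48 ± 0.31 (SE, adjusted p = 0.254) from E14.5 to E15.5. Nor was Bbs12, with group means of 8.06, 7.85, 7.41 and 7.12 from E12.5 to E15.5. Ift22 and Ift57 fell in the last step from their highest group means, 11.10 and 9.05 at E14.5, and were not called from E12.5 to E15.5. The count of 11 in the last step was 4 without FVF+ E14.5 replicate 1 or 3, 6 without FVF+ E15.5 replicate 1 and 7 without its replicate 3. The single call from E13.5 to E14.5 became 0 without FVF+ E13.5 replicate 1 or 2 or FVF+ E14.5 replicate 2, and 2 without FVF+ E14.5 replicate 1 or 3.

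In FVF- cells none of the 35 genes was called from E12.5 to E13.5 (1.02% of all genes), and 0 had an unadjusted p under 0.05. From E13.5 to E14.5 Ift27 and Nphp4 rose (8.30% of all genes were called, 5.68% higher and 2.62% lower), by 0.49 ± 0.13 (SE, adjusted p = 0.0313) and 0.40 ± 0.09 (SE, adjusted p = 0.0187). At an unadjusted p under 0.05 in limma, 6 of the 35 genes were higher and 11 lower at E14.5. Of all 19296 genes, 5086 had such a p-value in either direction. From E14.5 to E15.5 5 genes fell, 14.3% against 6.49% of all genes (1.84% higher, 4.65% lower): Ift140 (-0.53 ± 0.11 (SE, adjusted p = 0.0102)), Ift172 (-0.48 ± 0.09 (SE, adjusted p = 0.00570)), Ift122 (-0.40 ± 0.11 (SE, adjusted p = 0.0407)), Ift52 and Bbs9. Single arrays moved both counts. The E13.5 to E14.5 step had 8 calls without FVF- E13.5 replicate 1, 7 without FVF- E14.5 replicate 3, 6 without FVF+ E14.5 replicate 2, and 0 without FVF- E13.5 replicate 2 or FVF- E14.5 replicate 1. The last step had 3 without FVF- E12.5 replicate 1 or 2 or FVF+ E12.5 replicate 2, 2 without FVF- E14.5 replicate 1 or 3 or FVF- E15.5 replicate 3, and 1 without FVF- E15.5 replicate 1.

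At E14.5 FVF+ replicate 2 and FVF- replicate 1 stood apart from their groups. FVF+ replicate 2 was the lowest of its 3 arrays in 17 of the 35 genes and the highest in 17 (over all genes 34.4% and 45.2%). It read 6.74 in Cep290, 7.43 in Ift74, 8.25 in Rpgrip1l, 8.55 in Kif3a and 7.04 in Bbs12, the lowest of the day in FVF+ cells. FVF- replicate 1 was the lowest of its 3 arrays in 13 of the 35 genes and the highest in 14 (over all genes 29.8% and 47.6%). It read 5.98 in Cep290, 7.10 in Ift74 and 7.88 in Rpgrip1l, also the lowest of its group. The deviations of these 2 arrays from their group means correlated at 0.58 over all genes. Without both arrays 18 genes were called in the mean sort difference, 20 in the FVF+ change, 9 in the interaction and 17 in the last FVF+ step, of which 16 fell. The shares of all genes called in that fit are not given here, so these counts are not set against a background. Arrays that enter the FVF+ change were uneven as well. At E12.5, FVF+ replicate 1 was the lowest in 18 of the 35 genes and replicate 3 the highest in 18 (over all genes 32.2% and 35%). At E15.5, FVF+ replicate 2 was the lowest in 16 and replicate 3 the highest in 19 (35.5% and 37.1%). The part these arrays have in the other results was not tested.

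Other genes of the cilium were read from lists chosen by function. Among 21 partners of IFT, dynein-2 and the BBSome under other names, 6 were higher and 4 lower in FVF+ cells, and for all genes these shares were 30.5% and 25.2%. Lower were Kifap3 (-0.71), the IFT-A subunit Wdr19 (-0.57) and the adaptor Tulp3 (-0.43), and higher were the dynein-2 motor Dync2h1 (0.34), the IFT-B subunit Cluap1 (0.31) and the chaperonin-like Mkks (0.29). With time in FVF+ cells 16 of the 21 fell and 1 rose, with a median of -0.44 log2 units, against 42.9% of the 35 genes falling and 19.3% of all genes. Lztfl1, a regulator of BBSome traffic, changed by -1.49 ± 0.27 (SE, adjusted p = 3.7e-04), and Kifap3 fell 2-fold (adjusted p = 4.5e-06). In FVF- cells 6 fell and 1 rose (28.6% and 4.76%, against 9.70% and 10.7% of all genes).

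Of 18 other genes of the transition zone and the inversin compartment, 6 were higher and 5 lower in FVF+ cells (33.3% and 27.8%, against 30.5% and 25.2% of all genes). The retinitis pigmentosa GTPase regulator Rpgr (0.71), Tmem231 (0.50) and Cspp1 (0.49) led the higher side, and Nek8 (-0.39), Anks6 (-0.37) and Tmem237 (-0.34) the lower. Nek8 and Anks6 are a kinase of the inversin compartment and its activator. In FVF+ cells 11 of the 18 fell with time and 2 rose (61.1% and 11.1%, against 19.3% and 27.6% of all genes), with a median of -0.35. In FVF- cells 6 fell and 2 rose (33.3% and 11.1%, against 9.70% and 10.7%). Iqcb1, another name for which is Nphp5, changed by -1.57 ± 0.23 (SE, adjusted p = 5.8e-05) and Rpgr by -1.12 ± 0.20 (SE, adjusted p = 2.4e-04).

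Of 21 basal body and centriole genes 11 were higher and 3 lower in FVF+ cells (52.4% and 14.3%, against 30.5% and 25.2% of all genes). Talpid3, listed as 2700049A03Rik, differed by 0.80, the centriole assembly protein Sass6 by 0.63 and Pcm1, the scaffold of centriolar satellites, by 0.49. Ttbk2, the kinase that starts cilium assembly, and ninein (Nin) were both lower, at -0.55 log2 units. With time 12 fell and 0 rose in FVF+ cells, with a median of -0.38 (57.1% fell, against 19.3% of all genes, with 27.6% higher). In FVF- cells 5 fell and 0 rose (23.8% fell, against 9.70% of all genes, with 10.7% higher). At an unadjusted p under 0.05 in limma, 0 were higher in either sort, and 13 and 8 were lower. Pcm1 changed by -1.51 ± 0.32 (SE, adjusted p = 0.00119) and Sclt1, of the distal appendages, by -1.51 ± 0.29 (SE, adjusted p = 5.4e-04) in FVF+ cells.

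Of 19 ciliary membrane and cargo genes 7 were higher and 8 lower in FVF+ cells (36.8% and 42.1%, against 30.5% and 25.2% of all genes), with a range from -1.63 to 2.74 log2 units. Adcy3, the adenylyl cyclase of primary cilia (-1.63 ± 0.05 (SE, adjusted p = 1.7e-14)), Evc (-1.15 ± 0.06 (SE, adjusted p = 3.7e-12)) and polycystin-1, Pkd1 (-1.03 ± 0.07 (SE, adjusted p = 4.8e-10)), were lower in FVF+ cells. Pkhd1, the fibrocystin of duct-type epithelia (2.74 ± 0.20 (SE, adjusted p = 5.7e-10)), Rab3ip, the Rabin8 exchange factor for Rab8 (1.46 ± 0.07 (SE, adjusted p = 1.5e-12)), and the somatostatin receptor Sstr3 (0.65 ± 0.09 (SE, adjusted p = 4.9e-06)) were higher. In FVF+ cells 5 rose and 7 fell with time (26.3% and 36.8%, against 27.6% and 19.3% of all genes), and in FVF- cells 2 rose and 4 fell (10.5% and 21.1%, against 10.7% and 9.70%).

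RFX and other transcription factors of the cilium programme were higher in FVF+ cells in 8 of 12 cases and lower in 1, Rfx1 (-0.13), or 66.7% and 8.33%, against 30.5% and 25.2% of all genes. Rfx6, also a factor of islet cells (4.80 ± 0.18 (SE, adjusted p = 7.4e-14)), Myb (1.54 ± 0.08 (SE, adjusted p = 4.8e-12)) and Glis3 (1.37 ± 0.06 (SE, adjusted p = 5.0e-13)) had the largest differences, and Rfx3, which drives ciliary genes in islet cells, differed by 0.98 ± 0.11 (SE, adjusted p = 1.7e-07). Gmnc and Mcidas, which start multiciliated programmes, were not called between the sorts, at -0.03 and -0.01. With time 2 rose and 4 fell in FVF+ cells (16.7% and 33.3%, against 27.6% and 19.3% of all genes), and 3 rose and 1 fell in FVF- cells (25% and 8.33%, against 10.7% and 9.70%).

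Of 24 genes of the motile axoneme 11 rose and 1 fell with time in FVF+ cells (45.8% and 4.17%, against 27.6% and 19.3% of all genes), with a median of 0.23 log2 units, where all genes had 0.09. The outer dynein arm heavy chain Dnah9 changed by 0.98 ± 0.14 (SE, adjusted p = 3.1e-05) and the tektin Tekt2 by 0.85 ± 0.19 (SE, adjusted p = 0.00183) in FVF+ cells. Both were also higher in FVF+ than in FVF- cells, by 1.13 and 0.86 log2 units, as were 11 of the 24 (45.8%, against 30.5% of all genes), with 2 lower (Tppp3 at -1.23 and Ccdc39 at -0.20). In FVF- cells 1 rose and 0 fell (4.17% and 0%, against 10.7% and 9.70% of all genes), and 1 of the 24 had an unadjusted p under 0.05. Foxj1 itself, their regulator, rose by the 0.32 log2 units given above, a rise not called after quantile or cyclic loess normalization. It was dim, with group means of 7.12 to 7.69, below the median of all values, 8.77. Its part in the rise of the list was not tested.

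Of 14 genes of the Hedgehog pathway, which signals through the cilium, 9 were lower in FVF+ cells and 2 higher (64.3% and 14.3%, against 25.2% and 30.5% of all genes). The co-receptor Boc (-3.44 ± 0.12 (SE, adjusted p = 3.1e-14)) and the effectors Gli3 (-2.75 ± 0.08 (SE, adjusted p = 3.5e-15)) and Gli2 (-2.31 ± 0.11 (SE, adjusted p = 1.6e-12)) were lower, as Kif7 was, and the ligand-binding antagonist Hhip (2.41 ± 0.13 (SE, adjusted p = 7.4e-12)) and the receptor Ptch1 (1.06 ± 0.06 (SE, adjusted p = 1.2e-11)) were higher. The ligands Shh (0.11) and Ihh (0.04) were not called. With time 5 rose and 5 fell in FVF+ cells (35.7% each, against 27.6% and 19.3% of all genes), and 1 rose and 3 fell in FVF- cells (7.14% and 21.4%, against 10.7% and 9.70%).

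Other markers moved over the same days. In FVF+ arrays the mean of 9 acinar markers was 10.36 to 10.43 at E12.5 and 12.99 to 13.09 at E15.5, and that of 9 endocrine markers 10.86 to 11.35 and 12.40 to 12.51. Of 12 cell cycle genes, 6 fell and 1 rose in FVF+ cells (50% and 8.33%, against 19.3% and 27.6% of all genes), with a median of -0.47. None of the 12 was called in FVF- cells (20.4% of all genes were), and 1 of them had an unadjusted p under 0.05 there. The mean of these 12 genes was 11.69 to 11.96 in the FVF+ arrays at E12.5 and 11.23 to 11.40 at E15.5, and in the E14.5 arrays that stood apart it was 11.24 (FVF+ replicate 2) and 10.84 (FVF- replicate 1), the lowest of each group. Their part in the fall of the cilium genes was not tested.

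**Figure D4:**
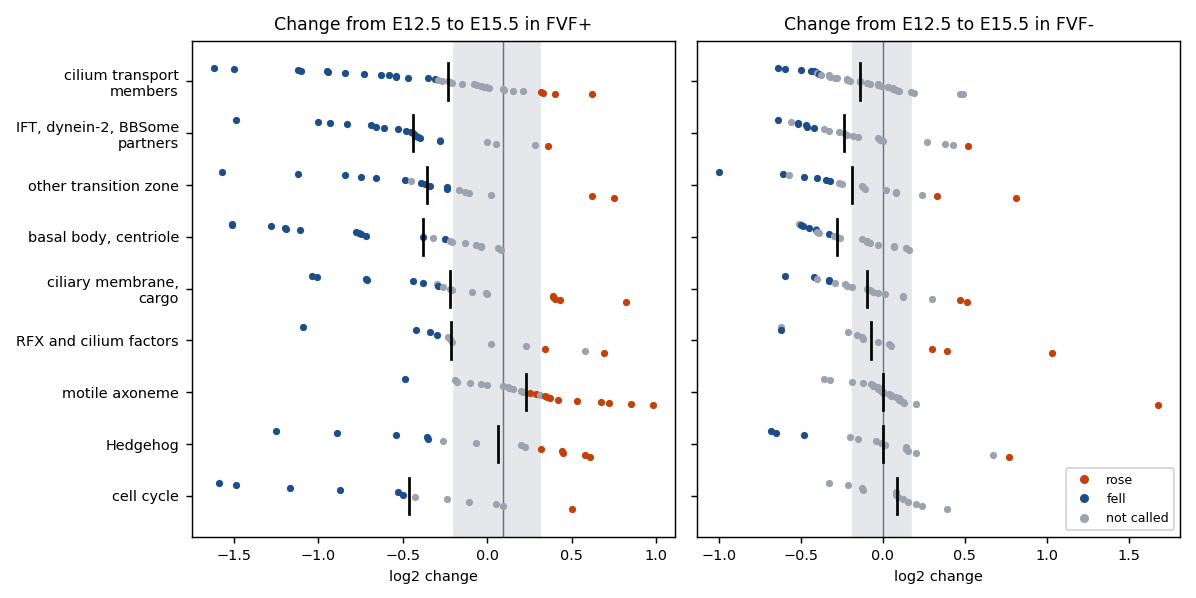
Log2 change from E12.5 to E15.5 (horizontal axes) of each gene (points) in the 35 cilium transport genes and 8 gene lists, in FVF+ cells (left) and FVF- cells (right), with each list's median as a black bar and the middle 50% of all genes shaded around their median. In FVF+ cells the medians of the transport, transition zone and basal body lists lie at -0.44 to -0.23 and that of the motile axoneme list at 0.23. Those of the other lists lie at -0.47 (cell cycle), -0.22 (ciliary membrane and cargo), -0.22 (RFX and cilium factors) and 0.07 (Hedgehog).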

How the data were processed

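The arrays measured expression in 21 sorted samples of embryonic pancreas. RNA came from Qiagen RNeasy Mini columns and was amplified by Ambion's WT Expression chemistry before Affymetrix labelling, per the labels' protocols. RMA, run by the authors with affy 1.44.0 per the submitters' processing notes, gave the deposited log2 signals, which were used unchanged. Raw intensities were not analysed here.

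The platform annotation gave 1 gene symbol to 20728 of 23305 probe sets, and the probe set with the highest mean stood for each of 19296 genes. For the annotation no build is named in the sources used here, so gene coordinates are not printed, and promoters carry their own build. Array medians lay between 8.68 and 8.82.

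In limma 3.58.1 under R 4.3.3, 8 group means were fitted to all arrays (13 residual degrees of freedom), with empirical Bayes moderation and two-sided p-values, Benjamini-Hochberg adjusted over the 19296 genes, separately for each of 14 comparisons. A gene was called, or said to have risen or fallen, at an adjusted p under 0.05. The genes and the lists were chosen with earlier results of these data known, so they were not tested as sets.

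Array values are given for the genes with the 2 largest called differences in each direction and the smallest difference of each complex, all genes of complexes of 3 or fewer, the 4 largest called changes over time in each direction and sort, and those called in the interaction. From each list up to 3 called genes per direction and up to 2 not called are named. Lztfl1, Iqcb1, Sclt1 and Rfx3 were named beyond this rule after their values were seen. Alternatives changed normalization, probe set choice, moderation, weights, samples fitted, blocks and arrays left out. Same-numbered arrays of the 2 sorts were not treated as pairs in the main fit. Their deviations correlated at -0.37 to 0.49, and so few arrays per group cannot show whether the samples were paired.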

Additional observations from a re-analysis of the deposited data

Results flagged for a closer look

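What changed between E12.5 and E15.5 differed between FVF+ and FVF- cells in 4 of the 35 genes, by the interaction term fitted in limma. Cep290 fell in FVF+ cells relative to FVF- cells, with an interaction of -2.08 log2 units (adjusted p = 0.00536). Ift74 had an interaction of -1.99 (adjusted p = 0.00597) and Ift20 of -0.90 (adjusted p = 0.00155). Ift172 had one of 0.49 (adjusted p = 0.0138), with its fall in FVF- cells. The 4 genes are 11.4% of the 35, against 19.6% called among all genes, so the share was not above the background. Groups of 2 or 3 arrays are too small for a test of single outlying arrays.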

How the results depend on the processing

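No gene called in the sort differences, the changes or the interaction had the opposite sign under an alternative, but the balance of calls and small medians did move: cyclic loess took the split from 4 higher and 3 lower to 0 and 3 at E13.5 and from 6 and 3 to 6 and 7 at E14.5, and the median interaction of the 35 genes was -0.04, but 0.05 after quantile normalization and 0.03 after median centring. Leaving out each array in turn gave 15 to 20 calls in the mean sort difference, 5 to 11 at E12.5, 1 to 8 at E13.5, 8 to 16 at E14.5 and 7 to 13 at E15.5. It gave 15 to 20 in the change in FVF+, 1 to 8 in the change in FVF- and 3 to 7 in the interaction. In the FVF+ steps it gave 0 to 0, 0 to 2 and 4 to 15, and in the FVF- steps 0 to 0, 0 to 8 and 1 to 6. With a 2-fold minimum, calls were 0 in the mean sort difference, 1, 0, 0 and 1 on the 4 days, 4 in the FVF+ change, 0 in the FVF- change and 2 in the interaction. Array weights, whose fit did not fully converge, gave 17 at E12.5, 18 at E14.5, 11 in the FVF- change, 8 in the interaction, 5 and 18 in the second and last FVF+ steps and 0 in the second FVF- step. Fits on only the groups compared gave 14 at E12.5, 2 at E13.5, 9 in the interaction, 0 and 4 in the second and last FVF+ steps and 0 in both of these FVF- steps. A filter on dim genes kept 28 of the 35. It removed B9d2, Bbs5, Bbs10, Bbs12, Cep290, Foxj1 and Ift74, all of them called in the FVF+ change. It gave 12 in the FVF+ change, 2 in the interaction and 5 in the last FVF+ step, and the removal lowers these counts in itself. Cyclic loess gave 3 at E13.5, 0 in the second FVF+ step and 2 in the last FVF- step, and quantile normalization gave the same 0 and 2. Median centring gave 11 in the FVF- change. A term for letter-coded arrays gave 3 at E13.5 and 0 in the second step of both sorts. The mean of a gene's rows gave 2 in the second FVF+ step, and an intensity trend 3 in the last FVF- step. Without the 2 E14.5 arrays that stood apart, an alternative chosen after seeing the data, there were 9 in the interaction, 0 and 17 in the second and last FVF+ steps, and 1 and 3 in those FVF- steps. The replicate number as a block gave 5 in the second FVF- step, against 2 without it, 19 in the mean sort difference, 20 in the FVF+ change and 4 in the interaction, and moved no other count by over 1.5 times. Counts under the alternatives are given without the shares of all genes called in the same fits. Where not stated, the cause was not tested. Groups of 2 arrays at E12.5 (FVF-) and E13.5 limit the calls that use them most.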
